A study of Mus musculus with 9 samples.

Results

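The 5 genes described here were grouped as encoding proteins that salivary acinar cells secrete, or help to make for secretion. Each was measured in submandibular glands (SMGs) of male mice. They are *Car6*, *Pip*, *Lpo*, *Agr2* and *2310057J18Rik*, 5 of 48733 rows of the unfiltered count table. The cell type that expressed each gene was not measured. The genes were selected by name, and their share of the counts and their levels in both genotypes in these same libraries were known when they were selected. The difference between genotypes is therefore given for these genes as a description, with its standard error and no p-value. All 5 genes passed the filter on low counts that left 13842 genes for testing.

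Acini are the secretory end pieces of a salivary gland. CAR6 is the secreted carbonic anhydrase, which interconverts CO2 and bicarbonate in saliva. PIP, the prolactin-inducible protein, is a small glycoprotein of saliva, tears and other exocrine fluids, and in several tissues its gene responds to prolactin and androgen. LPO, lactoperoxidase, is a heme enzyme that uses hydrogen peroxide to oxidise thiocyanate to the antibacterial hypothiocyanite, and the peroxide can come from the DUOX oxidases. AGR2 is a protein disulfide isomerase family member of the endoplasmic reticulum that is needed for mucin production in the intestine. *2310057J18Rik* has the synonym *Leg1* in the RefSeq annotation.

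The libraries came from the SMGs of 4 wildtype (WT) and 5 *Hs3st3a1*;*Hs3st3b1* double knockout (DKO) male mice. The mice were adults on a C57BL/6 background, and the WT mice were littermates. The DKO allele joins a frameshift deletion made by a zinc finger nuclease in exon 1 of *Hs3st3a1* to an *Hs3st3b1* allele that carries a LacZ cassette. Both genes encode enzymes that add the 3-O-sulfate group to heparan sulfate. The loss is present in every cell from conception, and the labels do not say which founder line each mouse came from or its exact age. No other treatment or agent is named for either group. Each library holds RNA of all cells of the gland, so that fewer cells of a type and less RNA per cell cannot be told apart.

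Total counts were 17053747 to 37870519 per library. As a check of the labels, counts of *Hs3st3a1* were 3 to 14 per WT library and 0 in every DKO library, and those of *Hs3st3b1* were 67 to 216 and 7 to 45. The acinar markers *Aqp5*, a water channel, and *Bhlha15*, a transcription factor of secretory cells, were present in every library, at 188 to 479 and 127 to 325 CPM (counts scaled to the TMM-normalized library size). The library DKO 1 stood apart for parotid gland genes: *Bpifa2* was at 7431 CPM there and at 43.3 CPM in the lowest DKO library, so values without DKO 1 are given below. Sublingual gland genes were uneven in both genotypes, with a summed level of 1.03 to 58.0 CPM in WT and 0.550 to 136 CPM in DKO.

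In the mouse annotation GENCODE M21 (GRCm38), *Car6* (ENSMUSG00000028972) spans 150187015 to 150201332 of chromosome 4 (minus strand), with 8 exons in its principal transcript. *Pip* (ENSMUSG00000058499) spans 41847535 to 41852065 of chromosome 6 (plus strand), with 4 exons in 4.53 kb. *Lpo* (ENSMUSG00000009356) spans 87806428 to 87828289 of chromosome 11 (minus strand), with 13 exons. *Agr2* (ENSMUSG00000020581) spans 35992907 to 36004087 of chromosome 12 (plus strand), with 8 exons. *2310057J18Rik* (ENSMUSG00000015519) spans 28972288 to 28986303 of chromosome 10 (minus strand), with 6 exons. No other annotated gene overlaps any of the 5, so reads of a partner on the opposite strand do not enter their counts in this annotation, although the libraries were unstranded.

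The 30 bases that run from 45 to 16 bases before each gene's RefSeq start site (GRCm38.p6) are shown because *Car6* and *Pip*, the most abundant members, each hold a TATA-like word there. Each is written 5′ to 3′ on the strand of its gene, and capitals mark every match to a searched motif.
*Car6*, chr4:150201151-150201180, minus strand: ttacagtttctgggcaTTTAAAagaagtgc
*Pip*, chr6:41847504-41847533, plus strand: tgcTTCTGTGAActgtaTATAAAacctgcg
*Lpo*, chr11:87826130-87826159, minus strand: aaaatgacatgtaaagaaataagggtgaca
*Agr2*, chr12:35992880-35992909, plus strand: taaatacaggctcagcgctgcgctggcaca
*2310057J18Rik*, chr10:28986322-28986351, minus strand: cttcctcctttcttctccaataaaagcatg
TTTAAA began 29 bases before the *Car6* start and TATAAA began 28 bases before the *Pip* start. Of 32817 promoter windows of the mouse, 3.01% had one of these words starting 35 to 20 bases before the start. The first run of capitals in *Pip* matches TTCNNNGAA, the letters of a STAT site, which was found at 42 and 140 bases before its start and in 7.01% of all windows of 250 upstream bases, searched on both strands. A further 5 motifs were searched on both strands: CACGTG (6.02% of windows) and CAGCTG (13.0%) were found in *Car6*, TGACG (17.7%) and AGAACA (16.1%) in *Pip*, and TGTTTAC (3.16%) in none of the 5. TTTAAA also occurred in *Agr2*, 183 bases before the start. CACGTG and CAGCTG each read the same on both strands, and the matches listed here do not overlap. These matches are descriptions of letters and say nothing of factor binding. The *Car6* and *Lpo* starts in RefSeq lie 197 and 2175 bases inside the GENCODE gene, so the stretch shown for each lies within the longer gene model.

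*Car6* was the second most abundant gene by counts in all 9 libraries, after the mucin-like gene *Mucl2*. It took 5.99%, 10.6%, 8.17% and 7.48% of all counts in WT 1 to 4 and 9.95%, 13.6%, 15.2%, 11.02% and 14.8% in DKO 1 to 5. As a share of counts the groups overlapped, because WT 2 was above DKO 1. In TMM-normalized CPM, *Car6* was at 55210.0, 94178, 68335 and 68855 in WT 1 to 4 and at 101116, 149310.4, 196666, 99180.3 and 182554 in DKO 1 to 5. On this scale every DKO library was above every WT library. The mean was 71645 ± 16295 CPM for the 4 WT and 145765 ± 45057 for the 5 DKO libraries, where ± gives the SD here and below. The log2 fold change (DKO over WT) was 1.02 with a standard error (SE) of 0.32, a ratio of 2.03. DKO 2, 3 and 5 had the high *Car6* levels, and DKO 1 and DKO 4 were just above the highest WT library.

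*Pip* ranked 5 to 9 among all genes by counts. Its level was 21422, 23853, 15755 and 31871 CPM in WT 1 to 4 and 31976, 49559, 63358, 32630.5 and 60241 CPM in DKO 1 to 5. Every DKO library was above every WT library, but the gap between WT 4 and DKO 1 was small beside the spread within either genotype. The mean was 23225 ± 6689 CPM in WT and 47553 ± 14833 in DKO, with a log2 fold change of 1.03 (SE 0.31). As a share of all counts *Pip* was at 1.88% to 3.46% in WT and 3.15% to 4.90% in DKO. Here too the groups overlapped, with DKO 1 below WT 4.

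*Lpo* was less abundant, at rank 28 to 126. It was at 402, 791, 742 and 619 CPM in WT 1 to 4 and at 829.4, 1127, 922, 736 and 1438 CPM in DKO 1 to 5. DKO 4 lay within the range of the WT libraries and the other 4 DKO libraries lay above it. The mean was 639 ± 174 CPM in WT and 1010.4 ± 279 in DKO, and the log2 fold change was 0.66 (SE 0.24). In share of counts the *Lpo* ranges were closer, at 0.0436% to 0.0893% in WT and 0.0713% to 0.116% in DKO.

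*2310057J18Rik* ranked 11 to 20 by counts. It was at 6553, 7036, 5976 and 7783 CPM in WT 1 to 4 and at 8634, 6918, 5972, 8627 and 7655 CPM in DKO 1 to 5. The groups overlapped, with DKO 1 and DKO 4 above all WT libraries and DKO 3 just under the lowest of them. The log2 fold change was 0.15 (SE 0.19), and 2 SE either side runs from -0.23 to 0.52. The DKO libraries with the lowest *2310057J18Rik* level, DKO 2 and DKO 3, were among the 3 with the highest *Car6* level, while DKO 1 and DKO 4 were the reverse.

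*Agr2* was the rarest of the 5, with 190 to 633 counts per library. It was at 8.48, 22.6, 11.4 and 11.6 CPM in WT 1 to 4 and at 18.5, 13.3, 10.998, 12.4 and 19.2 CPM in DKO 1 to 5. All 5 DKO libraries lay within the WT range, whose top was set by WT 2. The log2 fold change was 0.14 (SE 0.27). It was 0.50 without WT 2 and -0.03 without WT 1, so single WT libraries decided its direction and size.

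**Figure D1:**
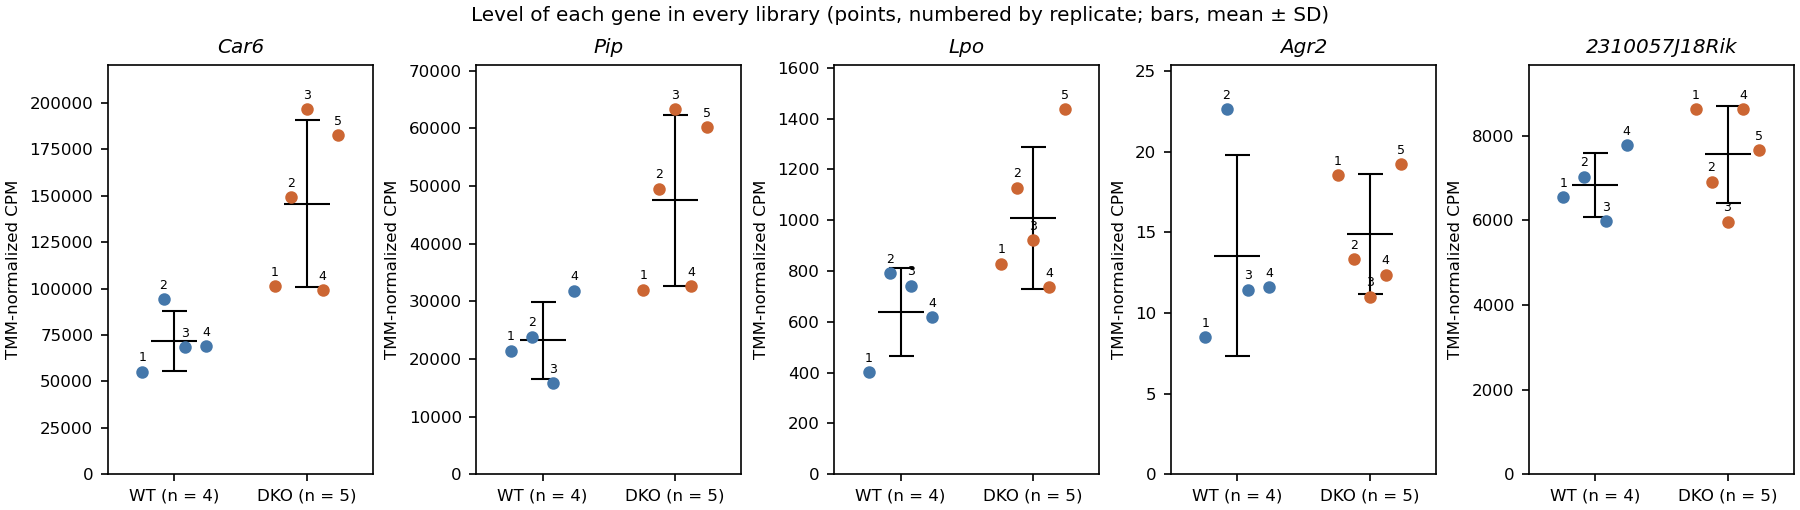
TMM-normalized CPM (vertical axis, linear, from 0, a separate scale for each gene) of the 5 genes in 4 WT and 5 DKO libraries; points are libraries numbered by replicate and bars show mean ± SD. *Car6* and *Pip* were higher in each of the 5 DKO libraries than in each of the 4 WT libraries, *Lpo* in 4 of 5, and the groups overlapped for *Agr2* and *2310057J18Rik*.

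Across the whole table, edgeR's quasi-likelihood test called 87 of 13842 genes (0.629%) at a Benjamini-Hochberg adjusted p under 0.05, 0.166% of genes as higher and 0.462% as lower in DKO. It called 0 of the 5 genes described here. DESeq2's Wald test, the tool that the study's methods name, called 616 genes (4.45%) from the same counts, and 2 of the 5, *Car6* and *Pip*. By the plain criterion of no overlap, every DKO library was above every WT library in 2.49% of genes tested and below in 3.51%. *Car6* and *Pip* met the first of these. Because the genes were selected with this contrast known, nothing is read from these counts. The estimates without DKO 1 were 1.13 for *Car6*, 1.15 for *Pip*, 0.72 for *Lpo*, 0.04 for *Agr2* and 0.09 for *2310057J18Rik*.

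The values depended on the scale. Together the 5 genes took 11.5% ± 2.15 of all counts in WT and 17.9% ± 2.93 in DKO. The TMM factors, which multiply the library size, were 1.09 to 1.20 in WT and 0.774 to 1.11 in DKO, and the 3 DKO libraries with the highest *Car6* level had the 3 lowest factors. When only library totals were used, the median log2 fold change of all genes tested moved from 0.01 to -0.28. *Car6* then had a log2 fold change of 0.68, *Pip* 0.70 and *Lpo* 0.33, while *Agr2* (-0.16) and *2310057J18Rik* (-0.12) changed sign. Relative to that median the values were 0.96, 0.98, 0.61, 0.12 and 0.16 in the same order.

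**Figure D2:**
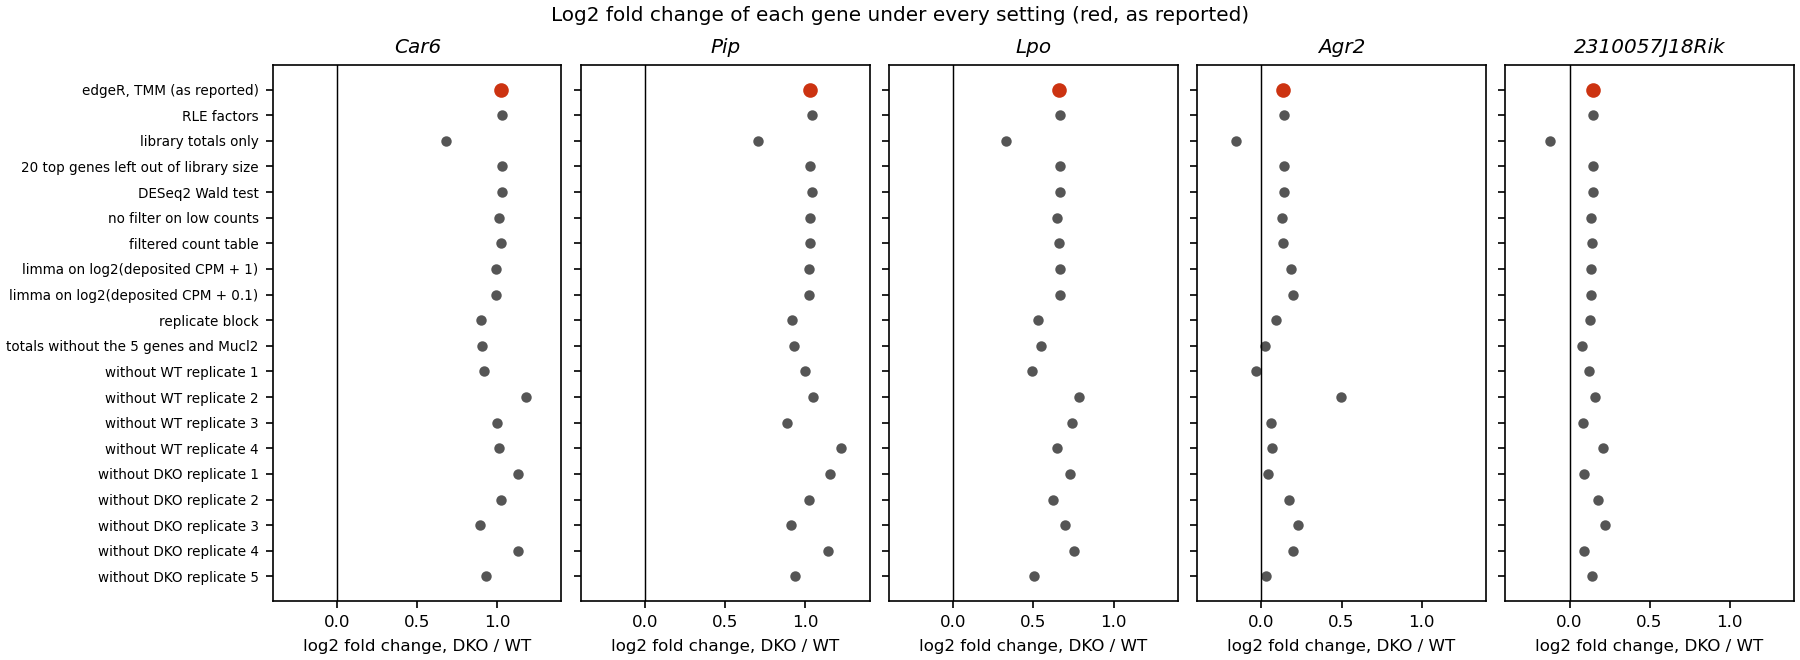
Log2 fold change, DKO over WT (horizontal axis), of each gene under every normalization, tool, filter and set of libraries tried; the red point is the reported edgeR value and the vertical line marks no change. *Car6*, *Pip* and *Lpo* stayed above 0 in all settings, *2310057J18Rik* crossed 0 with library totals only, and *Agr2* crossed it with library totals only and without WT 1.

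The ratio of *Car6* to *Pip* counts does not depend on any library scaling. It was 2.58, 3.95, 4.34 and 2.16 in WT 1 to 4 and 3.16, 3.01, 3.10, 3.04 and 3.03 in DKO 1 to 5. The DKO values all lay within the WT range. The coefficient of variation of the ratio was 32.3% in WT and 2.02% in DKO, while that of the *Car6* CPM itself was 22.7% in WT and 30.9% in DKO. *Car6* and *Pip* thus varied in proportion to each other among the DKO libraries, and less closely so among the WT libraries. The difference in spread was noticed in these data and was not tested. The ratio of *Car6* to *2310057J18Rik* counts was 8.42 to 13.4 in WT and 11.5 to 32.9 in DKO.

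**Figure D3:**
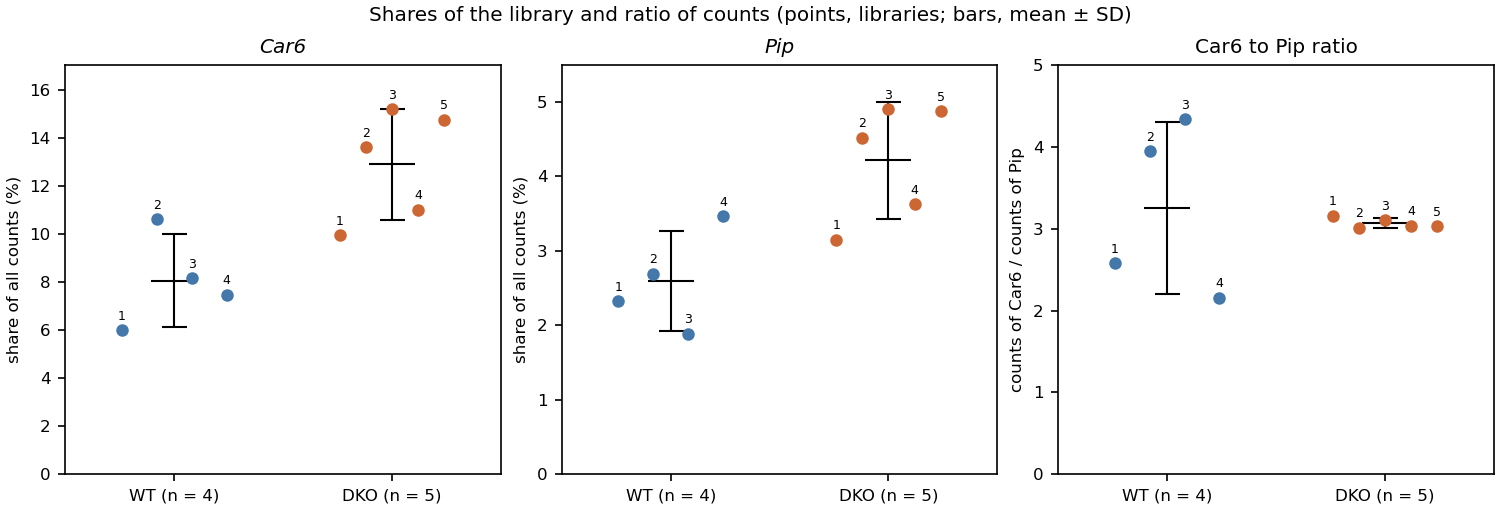
Share of all counts in percent for *Car6* and *Pip*, and the ratio of *Car6* to *Pip* counts (vertical axes, linear, from 0), in 4 WT and 5 DKO libraries; points are libraries numbered by replicate and bars show mean ± SD. The shares overlapped between genotypes, and the ratio lay between 3.01 and 3.16 in DKO and between 2.16 and 4.34 in WT.

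Levels of different genes can be compared only per length of transcript, so CPM was divided by the length of the principal transcript in kb. *Car6* was at 45721 ± 10399 CPM per kb in WT and 93022 ± 28754 in DKO, and *Pip* at 39499 ± 11375 and 80872 ± 25227. *Car6* was above *Pip* in each of the 5 DKO libraries, whereas *Pip* was above *Car6* in WT 1 and WT 4. The levels of these neighbours in the order did not differ beyond their spread in WT. *2310057J18Rik* followed at 5523 ± 618 CPM per kb in WT and 6108 ± 924 in DKO, then *Lpo* at 218 ± 59.4 and 345 ± 95.5, and *Agr2* at 17.3 ± 7.95 and 19.0 ± 4.78. These steps were wider than the spread of the libraries, and the order of the last 3 was the same in all 9 libraries.

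The genes were next set beside 6 acinar genes that encode no secreted protein: *Aqp5*, *Bhlha15*, the Na-K-Cl cotransporter *Slc12a2*, the muscarinic receptor *Chrm3*, the potassium channel *Kcnn4* and the chloride channel *Ano1*. All 6 had a positive log2 fold change, with a median of 0.29 against 0.01 for all genes tested, and none was called by edgeR and 1, *Kcnn4*, by DESeq2; with library totals only, *Slc12a2*, *Chrm3* and *Ano1* changed sign. *Kcnn4* had the highest value, 0.65 (SE 0.19), with an adjusted p of 0.138 by edgeR. In each library the mean log2 CPM of these 6 genes was subtracted from the log2 CPM of each of the 5 genes described here. The difference between genotypes in that quantity was 0.64 for *Car6*, 0.66 for *Pip*, 0.31 for *Lpo*, -0.16 for *Agr2* and -0.22 for *2310057J18Rik*. Every DKO library stayed above every WT library for *Car6*, at 9.99 to 10.97 against 9.55 to 9.88. For *Pip* 3 of 5 DKO libraries were above all WT libraries, and for *Lpo* 2 of 5. With *Aqp5* alone as the reference the *Car6* and *Pip* differences were 0.52 and 0.54.

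**Figure D4:**
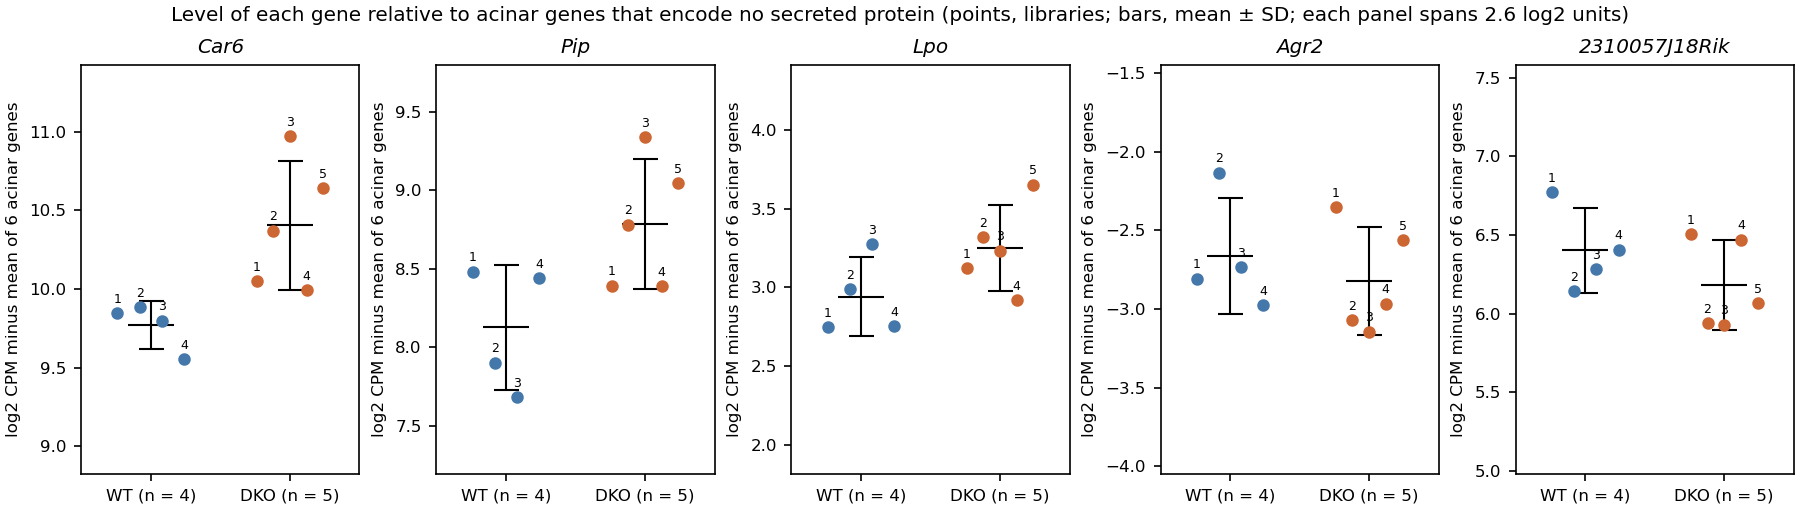
Log2 CPM of each gene minus the mean log2 CPM of 6 acinar genes (vertical axis, each panel spanning the same number of log2 units) in 4 WT and 5 DKO libraries; points are libraries numbered by replicate and bars show mean ± SD. Only *Car6* kept groups that do not overlap; *Agr2* and *2310057J18Rik* were lower on average in DKO on this scale.

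Most markers of other epithelial cell types had lower levels in DKO. The 5 granular duct genes, among them *Egf*, *Ren1*, *Klk1b26* and *Klk1b24*, all had negative log2 fold changes with a median of -1.91, and their summed level was 25270 to 58188 CPM in WT and 3968 to 20159 CPM in DKO. None was called by edgeR, and 4 were by DESeq2, all but *Ren1*. The *Ren1* ranges overlapped, at 37.2 to 141 CPM in WT and 36.0 to 169 CPM in DKO. Its log2 fold change was -0.22 (SE 0.45) and ran from -0.75 to 0.11 over the 19 settings. The 4 myoepithelial genes (*Acta2*, *Cnn1*, *Myh11*, *Krt14*) had a median of -1.07, with summed levels of 534 to 818 CPM in WT and 209 to 482 CPM in DKO, and *Myh11* was called as lower by edgeR (adjusted p = 0.0478, and 0.0823 without DKO 1). DESeq2 called all 4 as lower. Within genotypes, over the 9 libraries, the deviations of log2 CPM from the group mean correlated between *Car6* and the mean of the duct genes with r = -0.79, and between *Car6* and the mean of the myoepithelial genes with r = -0.87. For *Pip* these were -0.64 and -0.67, for *Lpo* -0.29 and -0.525, and for *Agr2* -0.18 and -0.385. For *2310057J18Rik* they were 0.48 and 0.45. With the mean of the acinar genes above, r was 0.605 for *Car6*, 0.44 for *Pip* and 0.80 for *Lpo*. It was 0.695 for *Agr2* and 0.19 for *2310057J18Rik*. These values share the library totals, and their part in the levels of the 5 genes described here was not tested. Skeletal muscle, adipocyte, lymphocyte and granulocyte markers were low in every library, with no summed level above 6.63 CPM, and the 2 tested skeletal muscle genes had opposite signs. *Acta1*, an actin, was called as lower by edgeR (3.48 ± 1.79 CPM in WT and 0.287 ± 0.178 in DKO, adjusted p = 0.0385, and 0.0823 without DKO 1), and *Ckm*, a creatine kinase, was at 1.58 ± 0.572 and 2.48 ± 0.534 CPM and was not called.

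Among the members themselves, deviations from the group mean of log2 CPM were correlated pair by pair over the 9 libraries. The value of r was 0.73 for *Car6* and *Pip*, 0.74 for *Car6* and *Lpo*, and 0.63 for *Lpo* and *Agr2*. It was 0.38 for *Agr2* and *2310057J18Rik*, 0.36 for *Pip* and *Lpo*, and 0.34 for *Car6* and *Agr2*. *Pip* and *Agr2* had a value of 0.007. With *2310057J18Rik* it was -0.55 for *Car6*, -0.25 for *Pip* and -0.19 for *Lpo*. For each gene the 3 most similar of 5834 genes with a mean of at least 10 CPM were listed by the same measure. For *Pip* these were the androgen-binding protein genes *Scgb1b27* (r = 0.98) and *Scgb2b27* (r = 0.96), which are among the most abundant transcripts of the gland, and *Minos1* (r = 0.96). For *Car6* they were *Upf2* (0.97), the major urinary protein gene *Mup5* (0.97) and *Sardh* (0.96). For *Lpo* they were *Nelfcd*, *Tcirg1* and *Pex11g* (0.95 to 0.96), for *Agr2* they were *Ctsf*, *Dxo* and *Tmem98* (0.92 to 0.94), and for *2310057J18Rik* they were *Nectin2*, *Mvp* and *Krt23* (0.88 to 0.93). Values as far from 0 on the negative side also occurred, down to -0.97 for *Car6* with *Fam129a*. With 9 libraries and 5834 genes, these lists are descriptions of these libraries.

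The families and partners of each protein were read from the same edgeR fit. Of the 16 carbonic anhydrase genes, which differ in cellular location, 11 were tested, and 6 had positive and 5 negative log2 fold changes, with a median of 0.13 (4 and 7 with library totals only, where *Car3* and *Car4* changed sign). *Car13*, a cytosolic member, was the single one called, with 29.1 ± 7.89 CPM in WT and 11.7 ± 3.55 in DKO (log2 fold change -1.31, SE 0.23, adjusted p = 0.0478 by edgeR), and every DKO library was below every WT library. By CPM averaged over all 9 libraries, *Car6* and *Car13* were among the 5 most abundant members with *Car12*, a membrane-bound enzyme (61.7 ± 14.5 and 53.0 ± 16.6 CPM), *Car2*, a cytosolic one (25.7 ± 6.97 and 23.98 ± 5.58 CPM), and *Car8*, which lacks the enzyme activity (23.996 ± 4.20 and 16.9 ± 3.57 CPM).

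*Lpo* was the only abundant heme peroxidase gene. *Mpo*, the neutrophil enzyme, whose gene lies 2.01 kb from *Lpo* on chromosome 11, and *Epx*, the eosinophil enzyme, had at most 2 counts in any library, and *Pxdn*, a basement membrane peroxidase, was at 5.12 ± 1.35 CPM in WT and 4.38 ± 1.02 in DKO. Among genes of peroxide supply, *Duoxa2* and *Duox2* had lower levels in DKO. *Duoxa2*, which brings DUOX2 to the cell surface, fell from 37.9 ± 2.49 CPM in WT to 21.3 ± 5.15 in DKO (log2 fold change -0.82, SE 0.16, adjusted p = 0.0478 by edgeR). *Duox2*, the oxidase, was at 12.1 ± 2.62 and 6.96 ± 1.67 CPM (log2 fold change -0.79, SE 0.19, adjusted p = 0.0776 by edgeR). Both had every DKO library below every WT library, and DESeq2 called both. Of 8 tested genes of peroxide and anion supply, 2 had positive and 6 negative values with a median of -0.15 (1 and 7 with library totals only, where *Ano1* changed sign), and the other abundant members, *Ano1*, *Cftr* and *Cyba*, had adjusted p of 0.492 or more by edgeR.

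*Pip* lies 0.923 kb from *Sval2*, a related gene of the same cluster on the same strand. *Sval2* was at 2.68 ± 0.674 CPM in WT and 3.43 ± 1.25 in DKO, *Sva* was at 0.652 ± 0.253 and 0.890 ± 0.291 CPM, and *Sval1* and *Sval3* had at most 5 counts. *Azgp1*, whose zinc-binding product can form a complex with PIP, was at 3.63 ± 0.905 CPM in WT and 9.83 ± 5.36 in DKO, with a log2 fold change of 1.42 (SE 0.41, adjusted p = 0.121 by edgeR). All 4 tested genes of this list, *Pip* included, had positive values under each scaling, with a median of 0.72. None was called by edgeR, and *Pip* and *Azgp1* were by DESeq2. Of the genes of prolactin signalling, *Prlr*, the prolactin receptor, was at 15.1 ± 2.19 CPM in WT and 27.2 ± 6.30 in DKO, with every DKO library above every WT library (log2 fold change 0.85, SE 0.17). Its adjusted p was 0.0502 by edgeR and 5.66e-04 by DESeq2, on either side of the threshold, and it ran up to 0.198 over the 19 alternative settings, of which 5 called it. *Stat5a* was at 11.6 ± 2.05 and 14.3 ± 1.63, and *Stat5b* at 8.14 ± 0.444 and 8.69 ± 0.617, with neither called; *Stat5b* changed sign with library totals only.

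*Agr3*, the paralog 43.2 kb from *Agr2*, had at most 2 counts in any library. *Tspan13* on the other side of *Agr2*, a tetraspanin gene, was at 109 ± 19.6 CPM in WT and 157 ± 14.2 in DKO, with a log2 fold change of 0.53 (SE 0.13) and an adjusted p of 0.0793 by edgeR. It was called by DESeq2. The protein disulfide isomerase family forms and rearranges disulfide bonds of secreted proteins. Of its 16 tested genes, 5 had positive and 11 negative values, and none was called by edgeR. Their median was -0.09 against 0.01 for all genes tested. With library totals only all 16 were negative, with a median of -0.39, where that of all genes tested was -0.28. DESeq2 called 2 of the 16 as lower, *Pdia4* (log2 fold change -0.87, SE 0.23) and *Pdia5* (-0.69, SE 0.16). *P4hb*, the most abundant, was at 2367 ± 188 CPM in WT and 2803 ± 697 in DKO, *Pdia3* at 413 ± 101 and 302 ± 40.8, *Pdia6* at 351 ± 99.9 and 239 ± 37.1, *Txndc5* at 160 ± 16.8 and 172 ± 22.4, and *Tmx1* at 144 ± 18.2 and 137 ± 23.3. Among genes known to act on *Agr2*, the transcription factor gene *Spdef* was at 9.65 ± 2.48 CPM in WT and 19.1 ± 4.72 in DKO, with every DKO library above every WT library (log2 fold change 0.98, SE 0.21). Its adjusted p was 0.0548 by edgeR and 8.44e-04 by DESeq2, and it ran up to 0.212 over the 19 settings, of which 4 called it. The *Agr2* ranges overlapped. *Xbp1*, a transcription factor of secretory capacity, was at 154 ± 12.5 and 220 ± 88.7 CPM (adjusted p = 0.387 by edgeR), and *Atf6*, *Ern1* and *Foxa1* were not called either.

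**Figure D5:**
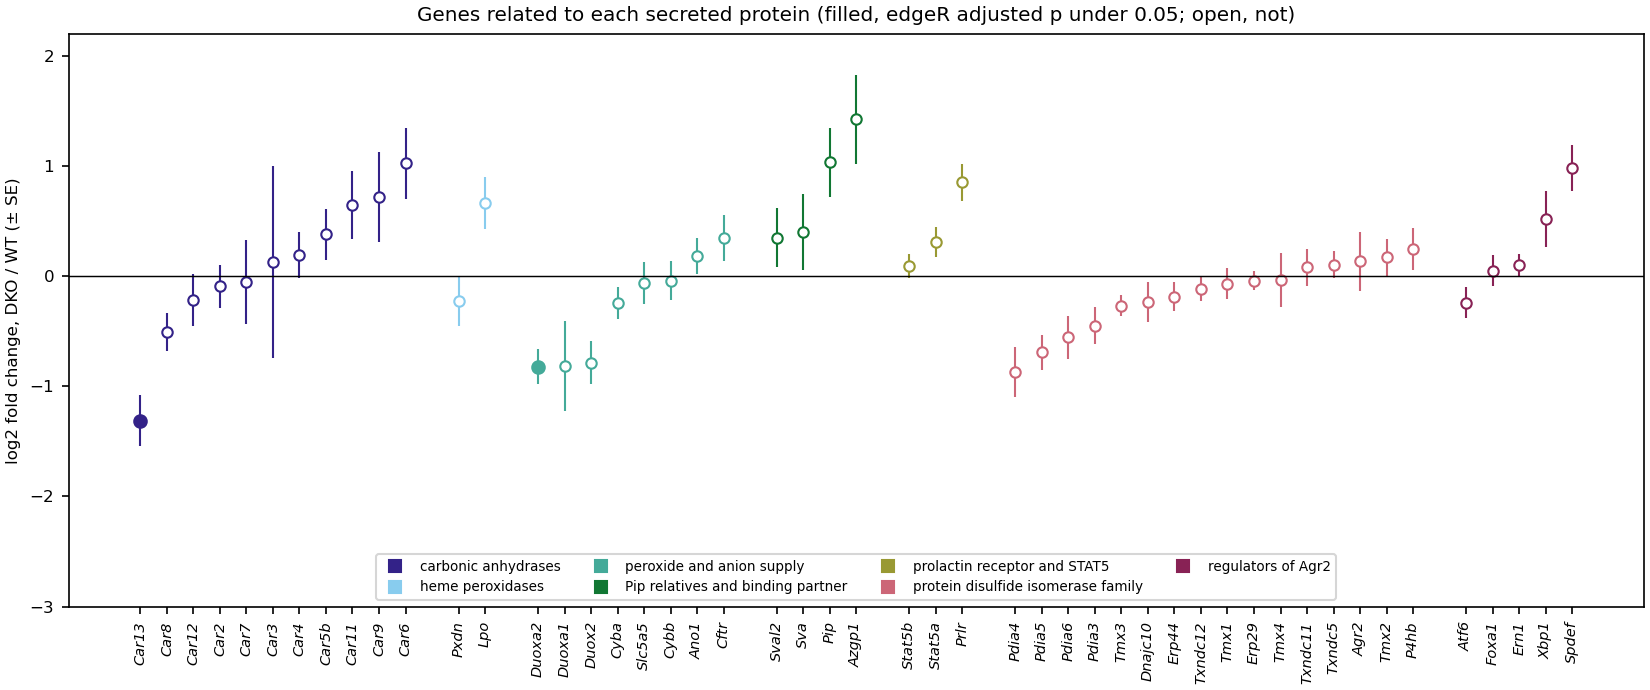
Log2 fold change, DKO over WT, with its SE (vertical axis) of tested genes of each family, enzyme system or regulator group, coloured by group; filled points were called by edgeR at an adjusted p under 0.05 and open points were not. *Car13* and *Duoxa2* are the filled points, both below 0, while *Azgp1*, *Car6*, *Spdef* and *Prlr* have the highest values of their groups and *Pip* lies below *Azgp1*.

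Other soluble defence proteins of saliva did not share one direction. Of 12 tested, 4 had positive and 8 negative values with a median of -0.18 (3 and 9 with library totals only, where *Wfdc2* changed sign), and 2 were called by edgeR, both lower. *Hp*, haptoglobin, which binds hemoglobin, fell from 33.8 ± 3.58 CPM in WT to 17.8 ± 3.29 in DKO (log2 fold change -0.93, SE 0.14), and *Lcn2*, which binds bacterial siderophores, fell from 20.9 ± 12.8 to 3.54 ± 1.35 CPM (log2 fold change -2.55, SE 0.44), each with an adjusted p of 0.0478 by edgeR. *Pigr*, the carrier of IgA into saliva, was at 109 ± 52.3 and 87.8 ± 44.5 CPM, *Jchain* at 102 ± 45.9 and 93.5 ± 82.4, *Cst3* at 107 ± 16.5 and 74.4 ± 19.998, and *Lyz2* at 66.8 ± 16.1 and 56.7 ± 21.7, none called. *Bpifa2* had a log2 fold change of 6.65 (SE 1.89) whose size rests on DKO 1, and without that library the log2 fold change was 1.998. Every DKO library was above every WT library for *Bpifa2*, at 43.3 CPM or more against 4.42 to 26.5 CPM. The 4 calls in these lists (*Car13*, *Duoxa2*, *Hp* and *Lcn2*) were close to the threshold: without DKO 1 their log2 fold changes were -1.32, -0.90, -0.87 and -2.67 and each had an adjusted p of 0.0823 by edgeR, so none was called. Over all 19 settings the adjusted p of these 4 genes lay between 2.90e-06 and 0.198, and each was called in 7 to 9 settings.

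Of the remaining genes next to the 5 in the annotation, *Eno1* beside *Car6*, a glycolytic enzyme gene, was at 126 ± 7.08 CPM in WT and 142 ± 27.4 in DKO, and *Mks1* beside *Lpo*, a ciliary gene, at 6.74 ± 3.68 and 11.5 ± 4.97 CPM, with neither called. *Slc2a7* beside *Car6*, *Olfr459* beside *Pip*, and *Themis* and *Soga3* beside *2310057J18Rik* had at most 14 counts in any library.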

How the data were processed

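RNA from male SMGs was sequenced by the authors from unstranded Nextera XT libraries on a HiSeq2500. The submitters' processing notes list STAR 2.5.2a, edgeR, limma and DESeq2, and the builds GRCm38, mm10 and GRCh38, without their roles. The authors deposited raw counts on 48733 rows, the same counts for 17562 rows, and a signal table of the filtered counts divided by 1 TMM-scaled factor per library (CPM units), which gave back whole reads.

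The unfiltered counts were analysed with edgeR 4.0.16 in R 4.3.3: filterByExpr (minimum count 10, total 15, leaving 13842 genes), TMM factors, the legacy quasi-likelihood fit on genotype alone, and Benjamini-Hochberg adjustment over all genes tested at 0.05. DESeq2 1.42.0 (independent filtering off) and limma 3.58.1 on log2(deposited CPM + 1 or 0.1) were alternatives. The study names DESeq2. The pipeline was tested on simulated data built from these libraries. Apart from the genes set to change, the simulated libraries shared a common mean profile. They therefore could not show how the fit handles a shift in library composition between genotypes. The SE is that of the log2 fold change in the edgeR fit. Correlations used group-centred log2 CPM (prior count 2). Summaries were made with Python 3.11.15, pandas 2.3.3, numpy 2.4.6 and matplotlib 3.10.9. Gene models came from GENCODE M21, and promoter sequences from RefSeq (GRCm38.p6), where all 5 genes matched by symbol.

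Groups and replicate numbers came from the labels. The 5 genes, the gene lists and the tests were chosen with earlier results of these data known. The genes named are the 5, in each list every called gene and up to 5 with the highest mean CPM, the 3 most similar genes per member, the neighbouring genes and the 2 deleted genes, and, after their values were seen, *Sval1*, *Mucl2*, *Fam129a*, *Pdia4*, *Pdia5* and list genes whose sign depended on the scaling. All deposited sample columns were used. Of the genes on these lists, 3 are not reported by name here. Precision is limited by 4 and 5 libraries, each from a separately numbered gland, so that p-values measure the spread between these glands, and by counting for genes near 0.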

Additional observations from a re-analysis of the deposited data

Results flagged for a closer look

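Within each genotype, the highest and lowest library were compared with the nearest other library by Dixon's ratio for every named list gene with at least 10 counts, on linear CPM. Of 136 group values examined, 17 passed the 95% critical value, and chance alone flags about 1 in 20 groups. None of the 5 genes described here was among them. In DKO 1, *Bpifa2* was at 7430.0 CPM, *Amy1* at 638 CPM, *Dcpp1* at 98.9 CPM, *Car2* at 33.8 CPM and *Prpmp5* at 0.615 CPM. In DKO 4, *Dcpp2* was at 44.9 CPM, *Dcpp3* at 64.3 CPM and *Muc19* at 6.13 CPM. In WT 3, *Dcpp1* was at 14.8 CPM, *Dcpp2* at 15.6 CPM, *Dcpp3* at 23.8 CPM and *Muc19* at 3.80 CPM, all high for WT, and *Prlr* was at 11.8 CPM, the lowest value of its group. In WT 2, *Duox2* was at 15.9 CPM, *Adipoq* at 0.535 CPM and *Ltf* at 0.0382 CPM. In WT 4, *Prb1* was at 0.0429 CPM. The *Ltf* and *Prb1* values are each a single count, with 0 counts in the other WT libraries. Dixon's ratio then takes its highest value whatever the count, so the rate of 1 in 20 does not apply to these groups. The flagged genes of DKO 1 include 3 of the 5 parotid gland markers, and the flagged genes of WT 3 and DKO 4 include sublingual gland markers. Their part in the levels of *Car6*, *Pip* and *Lpo* was not tested, and the log2 fold changes of these were 1.13, 1.15 and 0.72 without DKO 1, 1.13, 1.14 and 0.76 without DKO 4, and 1.0, 0.89 and 0.74 without WT 3, against 1.02, 1.03 and 0.66 with all libraries.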

How the results depend on the processing

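The log2 fold changes of *Car6*, *Pip* and *Lpo* kept their direction in all 19 alternatives and moved by less than the spread between libraries. *2310057J18Rik* was at -0.12 and *Agr2* at -0.16 with library totals only. Leaving out 1 library at a time gave 0.89 to 1.18 for *Car6*, 0.89 to 1.22 for *Pip*, 0.49 to 0.78 for *Lpo*, -0.033 to 0.50 for *Agr2* and 0.09 to 0.22 for *2310057J18Rik*. The difference of *Agr2* from the acinar genes ranged from -0.28 to 0.018 in this way, with the positive value without WT 2. The number of genes called moved far more: 87 as reported, 357 with library totals only (21 higher, 336 lower), 5 with the 20 most abundant genes left out of the library size, 616 by DESeq2, 347 without a filter, 13 on the filtered table, 6 by limma with a pseudocount of 1, and 0 to 441 with 1 library left out, 0 of them without WT 1 and 441 without DKO 4. For the genes of the related lists the same counts were 4 as reported, 9, 0, 11, 10, 1, 1, and 0 to 8. Under a setting chosen after seeing the data, library totals without the 5 genes and *Mucl2*, they were 20 and 1, and the median of all genes was -0.06. The cause of these shifts was not tested. Calls at 0.0478 in the main fit thus depend on the setting. The labels give both genotypes the numbers 1 to 4. Correlations of deviations between same-numbered libraries were 0.15, 0.30, 0.07 and 0.01. They were not compared with those of differently numbered libraries, so whether the numbers pair the mice was not tested. With the number as a replicate block, 0 genes were called (2024 at an unadjusted p under 0.05, against 2006 without the block), 0 in the related lists, and *Car6*, *Pip* and *Lpo* were at 0.90, 0.91 and 0.53. Depth limits *Agr2*, with at most 633 counts, and the genes near 0.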
